A study of Mus musculus with 17 samples.

Results

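The D-type cyclins and the inhibitors of cyclin-dependent kinases (CDKs) were followed in mouse bone marrow macrophages (BMMs) and in pre-osteoclasts (preOCs) with and without deletion of Bap1. The members were the 10 genes Ccnd1, Ccnd2, Ccnd3, Cdkn1a, Cdkn1b, Cdkn1c, Cdkn2a, Cdkn2b, Cdkn2c and Cdkn2d, taken by symbol from the 41388 genes counted in each of 17 RNA-seq libraries. All 10 passed the filter on low counts in every comparison. Bap1flox cells carried floxed Bap1 alleles (Bap1 flox/flox) and came from littermates without Cre, and Bap1LysM cells carried the same alleles together with LysM-Cre (+/- in the study's methods), which is expressed from the lysozyme gene Lyz2 in macrophages, neutrophils and other myeloid cells. BAP1 removes ubiquitin from histone H2A. BMMs were kept in M-CSF, the macrophage growth factor, and were sequenced from 3 Bap1flox and 3 Bap1LysM samples. PreOCs, which the labels call OC, received 100 ng/ml RANKL, the cytokine that turns macrophages into osteoclasts, for 24 h, and were sequenced from 6 Bap1flox and 5 Bap1LysM samples. The study describes the donors as male mice 20 weeks old. The study calls the preOC samples biologically independent, but the labels tie no library to an animal or culture, so the p-values measure the spread between libraries.

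D-type cyclins are made in response to growth factors, M-CSF among them, and activate CDK4 and CDK6, which phosphorylate the retinoblastoma protein RB and release E2F transcription factors for entry into S phase. The INK4 inhibitors (p16 from Cdkn2a, p15 from Cdkn2b, p18 from Cdkn2c and p19 from Cdkn2d) bind CDK4 and CDK6 and keep D cyclins off them, whereas the CIP/KIP inhibitors (p21 from Cdkn1a, p27 from Cdkn1b and p57 from Cdkn1c) bind cyclin-CDK complexes more broadly and restrain CDK2. Macrophages divide under M-CSF, and osteoclast precursors leave the cell cycle as they differentiate and fuse.

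Each library held between 37967542 and 61369441 counted reads. Bap1 itself was measured at 72.7 to 88.2 normalised CPM (the gene's counts over the scaled library size) in Bap1flox libraries and at 58.2 to 84.1 in Bap1LysM libraries, and since whole genes were counted this does not separate the deleted exons. Lyz2, the gene that carries Cre, fell below 0.5% of the Bap1flox mean in 6 of 8 Bap1LysM libraries, but the libraries labelled Bap1LysM number 1 kept 45.4% in BMMs and 80.1% in preOCs. A +/- animal keeps an intact Lyz2 allele, so the libraries near 0 go against +/- as stated, and the number of Cre alleles behind each library could not be settled here. Each genotype difference below also compares cells with and without Cre, at different Lyz2 levels. These cannot be told apart from deletion of Bap1. Macrophage markers were summed at 7475 to 10024 normalised CPM in BMMs and 3478 to 5531 in preOCs, and osteoclast markers at 240 to 385 in BMMs and 6093 to 15870 in preOCs. PreOC replicates 1 to 3 and 4 to 6 formed 2 library sets that stood apart. Mitochondrial genes held 0.481% to 1.074% of the reads in libraries numbered 1 to 3, BMMs included, and 2.364% to 5.264% in those numbered 4 to 6. The labels name no batch, so preOC results are given with the library set as a term and within each set beside the pooled fit.

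The bases before the starts of 5 inhibitors are shown because the results below turn on these genes. RefSeq windows on GRCm38.p6 were found for 7 of the 10 members, with 11 starts in all, and the 250 bases before the start are printed 5′ to 3′ in the direction of the gene. Capitals mark matches, on either strand, to the letters of the p53 half-site pair (CATGNNNNNNCATG), E2F (TTTCCCGC, TTTGGCGC or TTTCGCGC), CRE (TGACGTCA), AP-1 (TGANTCA), FOXO (TGTTTAC or TGTTTAA), the CCAAT box (CCAAT), the GC box (GGGCGG) and the TATA box (TATAAA). No match in these windows overlapped another.
Cdkn1a, upstream start, chr17:29090729-29090978, plus strand: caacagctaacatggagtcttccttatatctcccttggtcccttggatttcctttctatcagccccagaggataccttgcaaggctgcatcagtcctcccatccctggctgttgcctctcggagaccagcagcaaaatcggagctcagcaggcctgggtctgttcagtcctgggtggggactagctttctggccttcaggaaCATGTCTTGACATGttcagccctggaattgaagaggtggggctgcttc
Cdkn1a, downstream start, chr17:29093519-29093768, plus strand: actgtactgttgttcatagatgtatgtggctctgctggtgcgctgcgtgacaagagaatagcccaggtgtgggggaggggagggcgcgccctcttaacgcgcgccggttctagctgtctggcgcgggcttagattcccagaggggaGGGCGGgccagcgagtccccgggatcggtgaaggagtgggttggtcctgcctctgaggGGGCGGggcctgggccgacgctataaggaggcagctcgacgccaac
Cdkn1b, chr6:134920151-134920400, plus strand: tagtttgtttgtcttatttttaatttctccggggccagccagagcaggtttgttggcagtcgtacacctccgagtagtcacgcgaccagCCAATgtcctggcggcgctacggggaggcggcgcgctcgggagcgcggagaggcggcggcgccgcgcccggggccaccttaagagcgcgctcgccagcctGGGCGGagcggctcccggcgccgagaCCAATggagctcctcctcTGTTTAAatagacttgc
Cdkn2b, chr4:89311033-89311282, minus strand: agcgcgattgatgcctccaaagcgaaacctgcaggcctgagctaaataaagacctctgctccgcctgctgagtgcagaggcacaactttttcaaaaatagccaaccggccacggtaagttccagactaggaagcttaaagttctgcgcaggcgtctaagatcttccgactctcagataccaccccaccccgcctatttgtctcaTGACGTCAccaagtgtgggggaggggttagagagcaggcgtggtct
Cdkn2c, upstream start, chr4:109666757-109667006, minus strand: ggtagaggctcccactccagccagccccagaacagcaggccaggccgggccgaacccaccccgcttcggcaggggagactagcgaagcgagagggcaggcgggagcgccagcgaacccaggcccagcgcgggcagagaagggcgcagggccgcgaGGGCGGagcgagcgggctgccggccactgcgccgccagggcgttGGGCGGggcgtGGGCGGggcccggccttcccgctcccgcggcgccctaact
Cdkn2d, chr9:21291210-21291459, minus strand: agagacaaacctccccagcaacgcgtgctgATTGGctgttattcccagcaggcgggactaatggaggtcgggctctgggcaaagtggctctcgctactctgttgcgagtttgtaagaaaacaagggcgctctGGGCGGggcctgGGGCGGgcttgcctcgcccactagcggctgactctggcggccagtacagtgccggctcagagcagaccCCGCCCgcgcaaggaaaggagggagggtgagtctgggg

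The upstream start of Cdkn1a held the p53 half-site pair, which was found in 0.5% of 32851 windows of this length. Cdkn2b held the full CRE palindrome 46 bases before its start, a sequence found in 1.5% of all windows. Cdkn1b held 2 CCAAT boxes, which occurred in 33.8% of all windows, and a FOXO match, which occurred in 6.2%. The printed windows of Cdkn2c and Cdkn2d each held 3 GC boxes, present at least once in 32.7% of all windows, and neither held an E2F match. The window of the downstream Cdkn2c start, not printed, held no match to any of these letters. The printed Cdkn2c window lies within the counted gene, which on this strand begins further upstream, at 109667189. Cdkn2a has 2 starts, for the p19Arf and the p16Ink4a transcript, and the counts join both. These matches are a description of the letters and do not show that a factor binds.

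Levels per gene length are given as normalised RPKM (the normalised CPM per kilobase of exon). Cdkn1a had the highest mean of the 10 members in all 4 groups, at 269 ± 16.9 RPKM in Bap1flox BMMs (SD, n = 3), 324 ± 24.1 in Bap1LysM BMMs (n = 3), 136 ± 29.3 in Bap1flox preOCs (n = 6) and 193 ± 30.4 in Bap1LysM preOCs (n = 5). Ccnd1 came second, at 35.9 ± 14.8, 107 ± 40.6, 61.2 ± 31.8 and 76.3 ± 60.0 RPKM in the same order, and its range overlapped that of Cdkn1a in both preOC groups. Cdkn2c was the third in each group, at means from 14.8 to 27.6 RPKM. Cdkn2d, Cdkn1b, Ccnd3 and Ccnd2 followed in Bap1flox BMMs, with ranges that overlapped between neighbours among these 4, and Cdkn2a was last in all 4 groups, at 1.09 to 1.59 RPKM. Within families, Ccnd1 held 60.1% ± 5.11 of the D-type cyclin RPKM in Bap1flox BMMs, 82.6% ± 5.50 in Bap1LysM BMMs, 85.5% ± 1.81 in Bap1flox preOCs and 88.7% ± 4.18 in Bap1LysM preOCs. Cdkn1a held over 88% of the CIP/KIP RPKM in every library, with 88.1% the lowest. Cdkn2c held 45.0% to 60.4% of the INK4 RPKM.

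**Figure D1:**
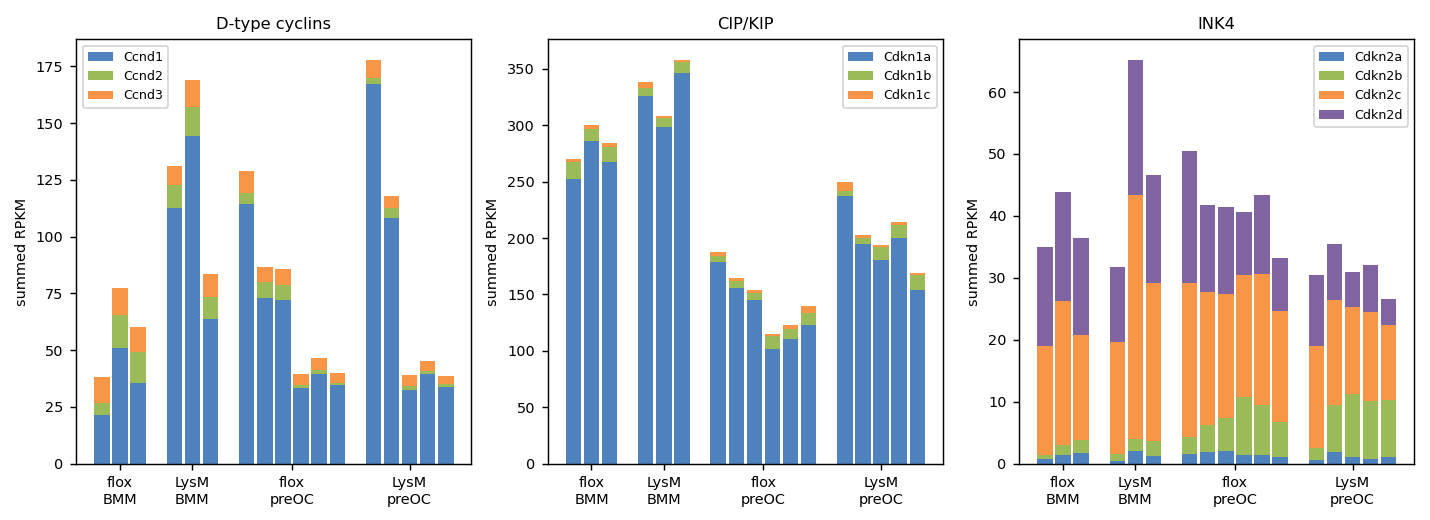
Stacked bars give the summed normalised RPKM of the D-type cyclins, the CIP/KIP inhibitors and the INK4 inhibitors in each of the 17 libraries, in replicate order within each group, with a linear axis from 0. Ccnd1 and Cdkn1a fill most of their families, and the Cdkn2b part of the INK4 bars is taller in preOCs than in BMMs except in the library labelled Bap1LysM number 1.

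The comparisons were genotype within preOCs and within BMMs, RANKL within each genotype over replicates 1 to 3, and the difference between the RANKL responses. They share libraries and are not independent of each other. Adjusted p-values are from the quasi-likelihood test of edgeR, adjusted by Benjamini and Hochberg's method over all genes tested, unless another tool is named. Between genotypes in preOCs, 1 of 10 members passed an adjusted p of 0.05 (Cdkn2c), beside 15.8% of all genes tested. With the library set as a term, 3 of 10 passed (Cdkn1a higher, Cdkn2c and Cdkn2d lower), beside 33.6% of all genes. The test the study used, voomWithQualityWeights, called 7099 of 12929 genes without a set term, among them Cdkn1a, Cdkn1b, Cdkn2a, Cdkn2b, Cdkn2c, Cdkn2d and Ccnd3. Between genotypes in BMMs, 0 of 10 passed, beside 5.32% of all genes, with 3 at an unadjusted p below 0.05 (26.2% of all genes), 3 called by DESeq2 (15.9% of all genes) and 2 by voomWithQualityWeights (13.6%). RANKL changed 5 of 10 members in Bap1flox, beside 64.6% of all genes, and 1 of 10 in Bap1LysM, beside 18.4%. In these 5 edgeR fits the share of members past the adjusted p was at or below that of all genes. Of the 2043 genes called in preOCs 45.1% were higher in Bap1LysM, and 33.3% of 2102 with upper-quartile scaling.

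**Figure D2:**
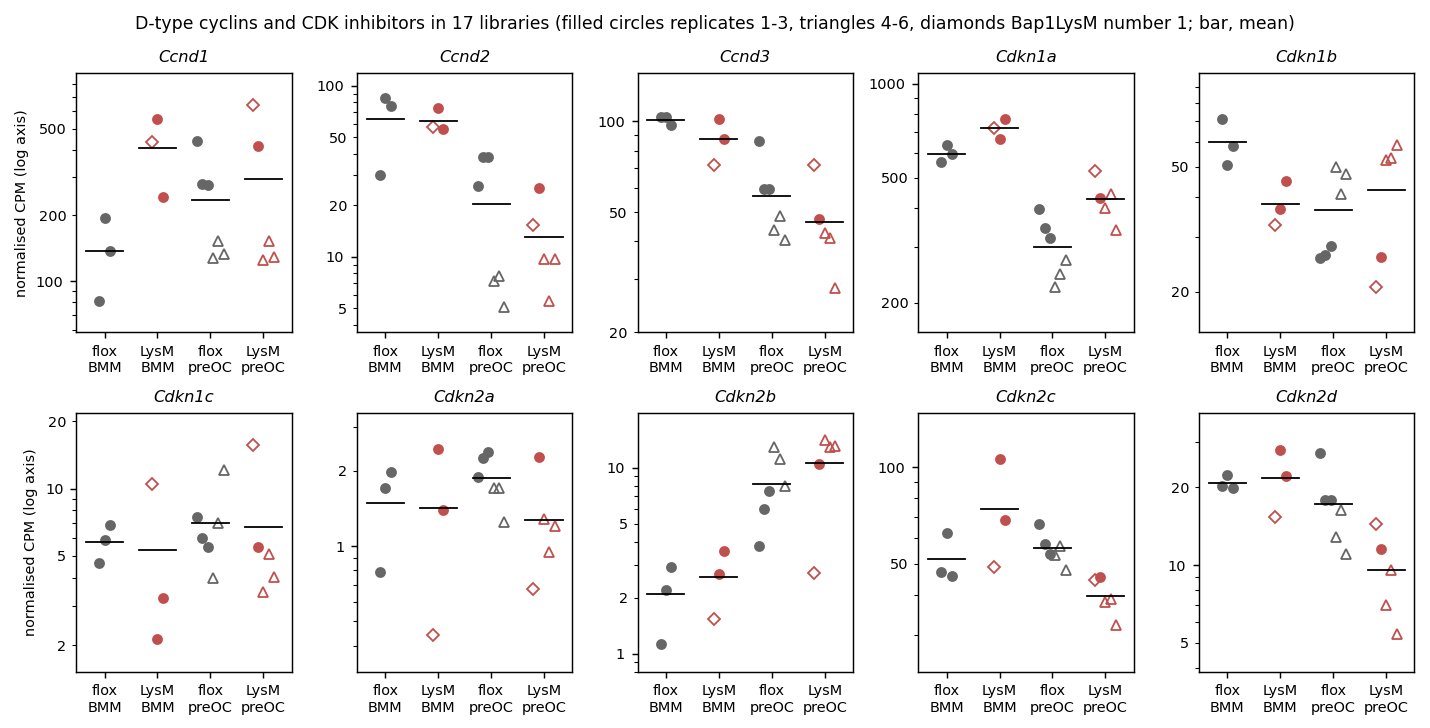
Each panel shows 1 member in normalised CPM on a log axis, with 1 point per library, in the 4 groups (flox, Bap1flox, and LysM, Bap1LysM). Filled circles are replicates 1 to 3, open triangles replicates 4 to 6, open diamonds the Bap1LysM libraries number 1, and bars the group means. Cdkn2c in the 5 Bap1LysM preOC libraries lies between 32.2 and 45.6, below all 6 Bap1flox preOC libraries, and Ccnd1 and Ccnd2 split by library set.

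Ccnd1, the growth-factor induced cyclin D1, was higher in Bap1LysM BMMs than in Bap1flox BMMs in all libraries, but the difference did not pass the adjusted p in the fit of the 6 BMM libraries alone. It was measured at 81.5, 195 and 137 normalised CPM in Bap1flox BMMs 1, 2 and 3, and at 432, 553 and 244 in Bap1LysM BMMs 1, 2 and 3. The groups did not overlap, as was so for 33.9% of all genes tested. The difference was 1.57 ± 0.40 on the log2 scale (SE, n = 3 and 3), or 2.96-fold, with an adjusted p of 0.0691. It passed in the fit blocked by replicate number (adjusted p = 0.0241) and in DESeq2 (adjusted p = 0.00029). The library labelled Bap1LysM number 1, which kept Lyz2, was the middle of the 3. The summed progenitor markers also separated the BMM genotypes, at 1.79 to 3.39 normalised CPM in Bap1flox and 8.37 to 16.2 in Bap1LysM. Of the 6 markers 2 were tested, and 1 passed (Cd34, 4.11 ± 0.50, adjusted p = 0.0163), while Kit stood at -0.16 ± 0.52 (adjusted p = 0.864). Their part in the Ccnd1 difference was not tested. Counts of Ccnd1 lie on chromosome 7 from 144929931 to 144939869 (GRCm38), minus strand, where LTO1 overlaps on the other strand. As these are bulk samples, more cells of a type and more RNA per cell cannot be told apart.

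In preOCs Ccnd1 followed the library set rather than the genotype. Bap1flox libraries 1 to 3 held 439, 280 and 277 normalised CPM and libraries 4 to 6 held 127, 152 and 133, while Bap1LysM libraries 1 and 2 held 641 and 416 and libraries 4 to 6 held 125, 152 and 129. The log2 difference of set 4 to 6 from set 1 to 3 was -1.65 ± 0.17 (adjusted p = 4.22e-05), and 8 of the 10 members differed between the sets, beside 53.6% of all genes. The genotype difference was 0.32 ± 0.50 in the pooled fit (adjusted p = 0.704), 0.67 ± 0.28 in replicates 1 to 3 (adjusted p = 0.287) and -0.02 ± 0.10 in replicates 4 to 6 (adjusted p = 0.893). The 2 sets' differences were not separated by the adjusted test of genotype by library set (-0.69 ± 0.29, unadjusted p = 0.0382, adjusted p = 0.539). RANKL raised Ccnd1 in Bap1flox by 1.27 ± 0.33 (adjusted p = 0.0126), with no overlap between the 3 BMM and 3 preOC libraries. In Bap1LysM the RANKL difference was 0.38 ± 0.37 (adjusted p = 0.499) and the groups overlapped. Between the genotypes the Ccnd1 responses did not differ past the threshold (-0.90 ± 0.55, adjusted p = 0.532).

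Ccnd2, cyclin D2, fell after RANKL in Bap1LysM, while its difference in Bap1flox did not pass. It stood at 30.1, 84.6 and 76.5 normalised CPM in Bap1flox BMMs and at 57.6, 73.7 and 56.2 in Bap1LysM BMMs, and the genotypes overlapped. After RANKL it stood at 26.0, 38.5 and 38.1 in Bap1flox replicates 1 to 3 and at 15.3 and 25.4 in Bap1LysM replicates 1 and 2. In Bap1LysM the fall was 1.60 on the log2 scale (log2 difference -1.60 ± 0.28, adjusted p = 0.0197), and no preOC library reached a BMM library. The call was lost without Bap1LysM BMM library 2 (adjusted p = 0.0663) or 3 (adjusted p = 0.0736). In Bap1flox the difference was -0.90 ± 0.37 (adjusted p = 0.0699), and it passed with the replicate block (-0.79 ± 0.20, adjusted p = 0.0170). It also passed without Bap1flox BMM library 1 (-1.19 ± 0.17, adjusted p = 8e-04), the low library of that group. The RANKL responses of the genotypes did not differ past the threshold (-0.71 ± 0.53, adjusted p = 0.609).

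Ccnd2 (chromosome 6, 127125779 to 127151048, minus strand, overlapped by the antisense genes Gm43126 and 9330179D12Rik) was split by preOC library set. Replicates 4 to 6 held 7.22, 7.76 and 5.06 normalised CPM in Bap1flox and 9.77, 5.50 and 9.66 in Bap1LysM, a log2 difference of -1.96 ± 0.26 from replicates 1 to 3 (adjusted p = 0.000147). The genotype difference had opposite signs in the sets, at -0.75 ± 0.29 in replicates 1 to 3 (adjusted p = 0.272) and 0.31 ± 0.25 in replicates 4 to 6 (adjusted p = 0.359). Summed markers of stromal cells, which could be carried over in marrow cultures, moved with the sets: 1307 to 2236 normalised CPM in Bap1flox replicates 1 to 3 against 233 to 397 in 4 to 6, and 461 to 1390 against 128 to 534 in Bap1LysM. In BMMs the same sum was 609, 2821 and 3230 in Bap1flox and 459, 1164 and 1527 in Bap1LysM libraries 1 to 3. The Bap1flox BMM library with the lowest Ccnd1 and Ccnd2 had the lowest stromal sum, whereas the Bap1LysM BMM library with the lowest Ccnd1 and Ccnd2 had the highest. Lum, a defining stromal marker, was at 0 in the BMMs and in Bap1flox preOCs 1 to 3, and 7 of 9 stromal markers exceeded 1 CPM in all libraries of each BMM group. The part of stromal RNA in the Ccnd1 and Ccnd2 levels was not tested.

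Ccnd3, cyclin D3, fell after RANKL in Bap1flox and did not pass between genotypes. It was measured at 103, 103 and 97.3 normalised CPM in Bap1flox BMMs and at 71.7, 102 and 87.5 in Bap1LysM BMMs, a difference of -0.22 ± 0.13 (adjusted p = 0.315). Bap1flox preOCs 1 to 3 held 86.1, 59.6 and 59.7, all below the Bap1flox BMMs. The fall was 0.57 on the log2 scale (log2 difference -0.57 ± 0.15, adjusted p = 0.0122), and in Bap1LysM, with 71.6 and 47.6 in preOCs 1 and 2, the difference was -0.54 ± 0.23 (adjusted p = 0.145). Between preOC genotypes the difference was -0.29 ± 0.25 (adjusted p = 0.467), and it passed only with the replicate block (-0.28 ± 0.08, adjusted p = 0.0346) and in voomWithQualityWeights (adjusted p = 0.0406). Bysl overlaps Ccnd3 on the other strand (chromosome 17, 47505051 to 47599691).

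Cdkn1a, which encodes p21 and is a classical target of p53, was lowered by RANKL in Bap1flox and was higher in Bap1LysM than in Bap1flox preOCs within each library set. Bap1flox BMMs held 561, 636 and 596 normalised CPM and Bap1LysM BMMs held 723, 664 and 771. Bap1flox preOCs 1 to 3 held 397, 346 and 322 and preOCs 4 to 6 held 225, 246 and 274, while Bap1LysM preOCs 1 and 2 held 528 and 432 and preOCs 4 to 6 held 402, 444 and 342. In each set every Bap1LysM library was above every Bap1flox library, whereas over all 11 libraries the groups overlapped. Cdkn1a, Cdkn2c and Cdkn2d, 3 of 10 members, had no overlap in the same direction in both sets, beside 23.2% of all genes tested. The pooled difference was 0.50 ± 0.17 on the log2 scale, or 1.41-fold (adjusted p = 0.0664), and with the library set as a term it was 0.57 ± 0.10, or 1.48-fold (adjusted p = 0.00132).

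The Cdkn1a difference was 0.44 ± 0.14 in replicates 1 to 3 alone (adjusted p = 0.227) and 0.67 ± 0.11 in replicates 4 to 6 alone (adjusted p = 0.00259). It kept its size without the library labelled Bap1LysM number 1, at 0.56 ± 0.11 with the set term (adjusted p = 0.00176), and it passed with the replicate block (adjusted p = 0.00801). In BMMs the difference was 0.26 ± 0.09, or 1.20-fold, with no overlap (adjusted p = 0.142). RANKL lowered Cdkn1a in Bap1flox by 0.75 on the log2 scale (log2 difference -0.75 ± 0.10, adjusted p = 0.000471). In Bap1LysM the difference was -0.57 ± 0.17 (adjusted p = 0.0612), and -0.69 ± 0.18 without the preOC library number 1 (adjusted p = 0.0423), a fit that keeps 1 preOC library and takes its spread from the BMMs. The RANKL responses of the genotypes did not differ past the threshold (0.18 ± 0.17, adjusted p = 0.691). The gene lies on chromosome 17 from 29090979 to 29100722, plus strand, where AC167363.2 overlaps on the other strand.

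Cdkn1b (chromosome 6, 134920401 to 134925513, plus strand), which encodes p27, fell after RANKL in Bap1flox. Bap1flox BMMs held 71.0, 50.7 and 58.4 normalised CPM against 25.7, 26.3 and 27.9 in preOCs 1 to 3, a log2 difference of -1.17 ± 0.12, or 0.443 times the BMM level (adjusted p = 0.000173). Bap1LysM BMMs started lower, at 32.6, 36.7 and 45.1, and preOCs 1 and 2 held 20.8 and 25.8, a difference of -0.69 ± 0.20 (adjusted p = 0.0598). Neither RANKL comparison had overlapping groups, as held for 71.2% of all genes in Bap1flox and 55.5% in Bap1LysM. Between BMM genotypes the difference was -0.66 ± 0.16, or 0.633 times, with no overlap and an adjusted p of 0.0629. It passed with the replicate block (adjusted p = 0.0400) and in DESeq2 (adjusted p = 0.00533). In preOCs Cdkn1b was higher in replicates 4 to 6 (50.1, 41.0 and 47.5 in Bap1flox, 52.5, 53.4 and 58.8 in Bap1LysM) than in replicates 1 to 3 of either genotype. The set effect was 0.92 ± 0.10 (adjusted p = 6.51e-05) and the genotype difference with the set term was 0.06 ± 0.10 (adjusted p = 0.694). Without the set term the genotype difference was 0.21 ± 0.28 (adjusted p = 0.649), and it passed in voomWithQualityWeights (0.55 ± 0.18, adjusted p = 0.0213).

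Cdkn1c (chromosome 7, 143458350 to 143461050, minus strand), the imprinted gene of p57, was low and passed in 0 of the 5 comparisons. Its levels ran from 4.65 to 6.86 normalised CPM in Bap1flox BMMs, 2.13 to 10.5 in Bap1LysM BMMs, 4.00 to 12.1 in Bap1flox preOCs and 3.46 to 15.6 in Bap1LysM preOCs. In both Bap1LysM groups the highest value belonged to the library labelled number 1. The genotype difference in preOCs was 0.74 ± 0.43 in replicates 1 to 3 (adjusted p = 0.418) and -0.86 ± 0.35 in replicates 4 to 6 (adjusted p = 0.0868). An antisense gene, Gm44732, overlaps it, and the strand setting of the counting is not given in the sources used here.

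Cdkn2c, which encodes p18, was the member that passed between preOC genotypes in the pooled fit. Bap1flox preOCs held 66.5, 57.8 and 53.5 normalised CPM in replicates 1 to 3 and 53.2, 56.8 and 47.7 in replicates 4 to 6, and Bap1LysM preOCs held 44.4 and 45.6 in replicates 1 and 2 and 38.0, 38.7 and 32.2 in replicates 4 to 6. All 5 Bap1LysM libraries were below all 6 Bap1flox libraries, as was so in either direction for 9.4% of all genes. The log2 difference was -0.49 ± 0.12, or 0.71 times the Bap1flox level (adjusted p = 0.0199), and -0.47 ± 0.08 with the set term (adjusted p = 0.00139). Within sets it was -0.39 ± 0.12 in replicates 1 to 3 (adjusted p = 0.216) and -0.53 ± 0.10 in replicates 4 to 6 (adjusted p = 0.00512). The pooled call was lost without Bap1LysM preOC library 4 (adjusted p = 0.0602) or 5 (adjusted p = 0.0596), with the difference at -0.47 and -0.48.

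In BMMs the order was not the same. Cdkn2c stood at 47.0, 62.4 and 45.7 normalised CPM in Bap1flox and 48.7, 106 and 68.3 in Bap1LysM BMMs, with overlap and a difference of 0.52 ± 0.28 (adjusted p = 0.291). RANKL left a difference of 0.20 ± 0.14 in Bap1flox (adjusted p = 0.267) and of -0.71 ± 0.32 in Bap1LysM (adjusted p = 0.171). The test of the difference between the responses gave -0.91 ± 0.37 (unadjusted p = 0.0323, adjusted p = 0.367). In the fit over all 17 libraries with the library set as a term it passed (-1.03 ± 0.26, adjusted p = 0.0209). That fit assumes the same set difference in both genotypes. Cdkn2c lies on chromosome 4 from 109660876 to 109667189, minus strand.

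Cdkn2d (chromosome 9, 21288463 to 21291209, minus strand), which encodes the INK4 protein p19, was lower in Bap1LysM preOCs within each set. Bap1flox preOCs held 27.2, 17.9 and 17.9 normalised CPM in replicates 1 to 3 and 12.8, 16.3 and 11 in replicates 4 to 6. Bap1LysM preOCs held 14.4 and 11.5 in replicates 1 and 2 and 7.0, 9.61 and 5.42 in replicates 4 to 6. Each set separated the genotypes without overlap, but the 2 sets together overlapped. Within sets the log2 difference was -0.69 ± 0.23 in replicates 1 to 3 (adjusted p = 0.236) and -0.86 ± 0.22 in replicates 4 to 6 (adjusted p = 0.0165). The pooled log2 difference was -0.84 ± 0.29, or 0.557 times (adjusted p = 0.0706), and with the set term it was -0.78 ± 0.17, or 0.581 times (adjusted p = 0.00547). The replicate block gave the same size, -0.84 ± 0.09 (adjusted p = 0.00167), and the call with the set term held without the library labelled Bap1LysM number 1 (-0.85 ± 0.19, adjusted p = 0.00411). BMMs of both genotypes overlapped, at 20.2, 22.3 and 19.8 in Bap1flox and 15.4, 27.8 and 22.2 in Bap1LysM. RANKL gave 0.01 ± 0.18 in Bap1flox (adjusted p = 0.949) and -0.74 ± 0.28 in Bap1LysM (adjusted p = 0.113), with a difference between the responses of -0.76 ± 0.34 (unadjusted p = 0.0488, adjusted p = 0.398).

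**Figure D3:**
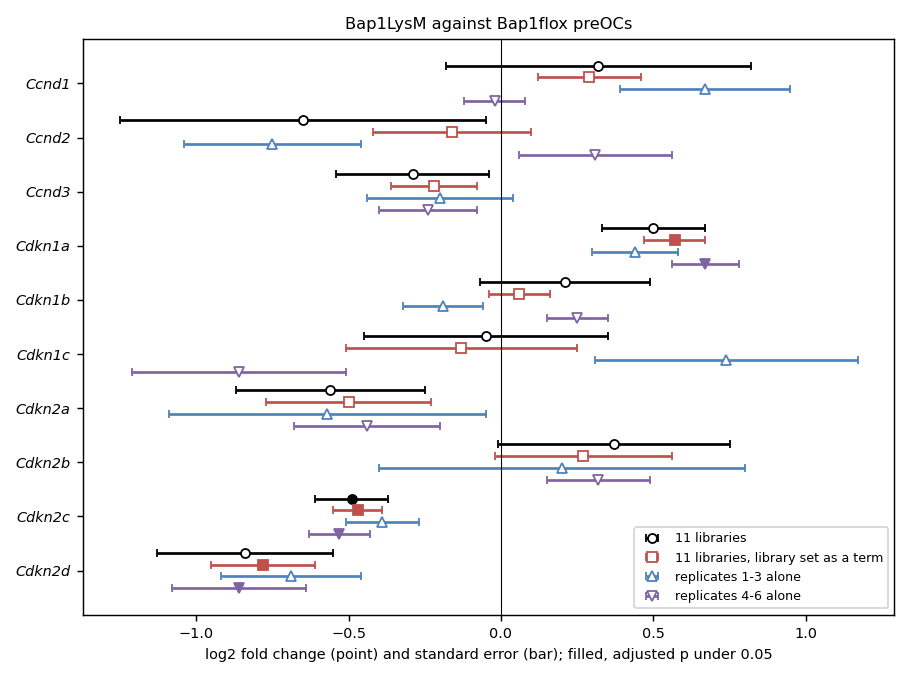
Points are log2 fold changes of Bap1LysM against Bap1flox preOCs for each member, bars are standard errors, and filled symbols passed an adjusted p of 0.05. Symbols give the pooled fit of 11 libraries, the same fit with the library set as a term, and each set alone. Cdkn1a lies to the right of 0 and Cdkn2c and Cdkn2d to the left in all 4 fits, whereas Ccnd1, Ccnd2, Cdkn1b and Cdkn1c change sign between the sets.

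Cdkn2b (chromosome 4, 89306289 to 89311032, minus strand), which encodes p15 and is best known as a target of TGF-beta, rose with RANKL in Bap1flox. It stood at 1.12, 2.19 and 2.93 normalised CPM in Bap1flox BMMs and at 3.80, 5.95 and 7.44 in preOCs 1 to 3, an increase of 1.46 ± 0.39 on the log2 scale, or 2.75-fold (adjusted p = 0.0142). The call was lost without Bap1flox preOC library 3 (1.24 ± 0.43, adjusted p = 0.0512). In Bap1LysM, BMMs held 1.54, 2.68 and 3.55 and preOCs 1 and 2 held 2.72 and 10.4, a difference of 1.37 ± 0.62 (adjusted p = 0.167). The library labelled number 1 was the low preOC. The difference was 2.05 ± 0.44 without it (adjusted p = 0.0273) and 0.04 without number 2, and each of these fits keeps 1 preOC library whose spread is taken from the BMMs. Between preOC genotypes the difference was 0.37 ± 0.38 (adjusted p = 0.543), and it passed in voomWithQualityWeights (0.67 ± 0.26, adjusted p = 0.0431). PreOC replicates 4 to 6 were higher than 1 to 3 by 0.88 ± 0.30 (adjusted p = 0.0272).

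Cdkn2a, the gene of p16Ink4a and p19Arf next to Cdkn2b (chromosome 4, 89274471 to 89294653, minus strand), was near the lower end of what these libraries could count. Its levels ran from 0.441 to 2.44 normalised CPM over the 17 libraries, from 18 to 131 reads, and the lowest BMM and the lowest preOC value were both in libraries labelled Bap1LysM number 1 (0.441 and 0.676). The genotype difference was -0.56 ± 0.31 in preOCs (adjusted p = 0.25) and -0.06 ± 0.62 in BMMs (adjusted p = 0.956). It passed in preOCs without Bap1LysM library 2 (-0.89 ± 0.26, adjusted p = 0.0318) and in voomWithQualityWeights (-0.79 ± 0.20, adjusted p = 0.00605). RANKL gave 0.55 ± 0.34 in Bap1flox (adjusted p = 0.203) and 0.06 ± 0.81 in Bap1LysM (adjusted p = 0.967).

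**Figure D4:**
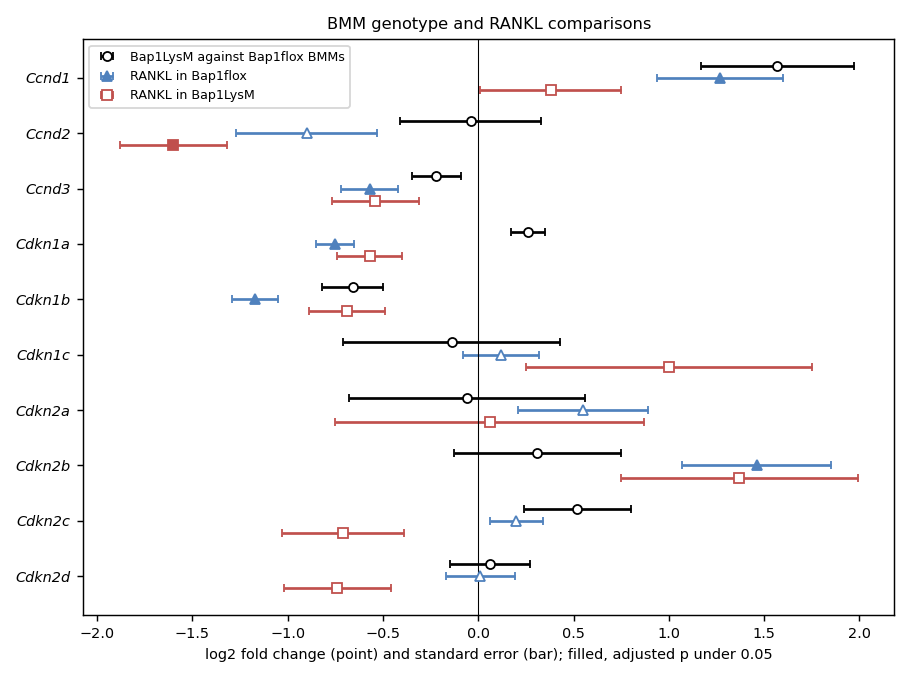
Points are log2 fold changes with standard errors for the genotype comparison in BMMs and for RANKL against no RANKL in Bap1flox and in Bap1LysM, replicates 1 to 3. Filled symbols passed an adjusted p of 0.05: Ccnd1 and Cdkn2b higher and Ccnd3, Cdkn1a and Cdkn1b lower in Bap1flox, and Ccnd2 lower in Bap1LysM.

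The direct test of genotype by RANKL over 11 libraries called 0 of 10 members and 0% of all genes, with 2 members (Cdkn2c and Cdkn2d) and 12.4% of genes at an unadjusted p below 0.05, and DESeq2 called 0 members and 111 genes. In the fit over all 17 libraries with the library set as a term, 3 members passed beside 10.9% of all genes: Cdkn2c (above), Ccnd1 (-1.32 ± 0.40, adjusted p = 0.0471) and Cdkn1b (0.67 ± 0.19, adjusted p = 0.0379). Replicates 4 to 6 hold no BMMs, so that fit assumes the same set difference in both genotypes. Genotype by library set gave -0.69 ± 0.29 for Ccnd1 (unadjusted p = 0.0382), 0.44 ± 0.17 for Cdkn1b (unadjusted p = 0.0222) and -0.13 ± 0.16 for Cdkn2c (unadjusted p = 0.44). In replicates 1 to 3 the RANKL responses differed by -0.90 ± 0.55 for Ccnd1 (adjusted p = 0.532) and 0.48 ± 0.23 for Cdkn1b (adjusted p = 0.439). RANKL responses in Bap1LysM rested on 2 preOC libraries. Without both libraries labelled number 1, 6 members passed there beside 32.6% of all genes, among them Cdkn2d (-1.08 ± 0.25, adjusted p = 0.0165), Ccnd3 (-0.96 ± 0.19, adjusted p = 0.00915) and Cdkn2b (1.78 ± 0.29, adjusted p = 0.00406). In that fit only 1 preOC library remained, and it is assumed to vary like the BMMs. Within replicates 1 to 3 of the preOCs alone, 0 members and 0% of genes passed between genotypes, with 4 members and 17.8% of genes at an unadjusted p below 0.05. Within replicates 4 to 6 alone, 3 members (Cdkn1a, Cdkn2c and Cdkn2d) and 33.8% of genes passed. Genotype by library set called 0 members and 0% of genes, with 4 members and 9.17% of genes at an unadjusted p below 0.05.

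The genes of the kinases and RB family proteins that the members act on were followed beside them. Over all genes tested, 31.7% rose and 32.9% fell with RANKL in Bap1flox, and 10.8% rose and 7.6% fell in Bap1LysM. Between preOC genotypes 7.12% of all genes were higher and 8.68% lower in Bap1LysM in the pooled fit, 16.6% and 17% with the set term, and in BMMs 1.31% and 4.01%. Of 16 CDK, RB and E2F partner genes, 10 rose and 2 fell with RANKL in Bap1flox (median log2 difference 0.45, against -0.05 over all genes). Cdk6, a D cyclin partner, rose by 1.75 ± 0.11 (adjusted p = 2.54e-05), Cdk4 by 0.72 ± 0.12 (adjusted p = 0.00138) and Rbl1, the gene of p107, by 1.10 ± 0.15 (adjusted p = 0.000596). Rb1 fell, with a log2 difference of -1.31 ± 0.13 (adjusted p = 0.000154). In Bap1LysM 1 rose and 2 fell (median -0.01, against 0.01), with Cdk6 at 1.11 ± 0.29 (adjusted p = 0.0487) and Rb1 at -1.18 ± 0.15 (adjusted p = 0.0117). Between preOC genotypes 5 were lower in Bap1LysM in the pooled fit (median -0.33, against -0.01 over all genes), with the set term 9 were lower and 1 higher. Cdk2 was lower by both fits (-0.35 ± 0.08, adjusted p = 0.0103, and -0.34 ± 0.07, adjusted p = 0.00266). Tfdp2, a dimer partner of E2F proteins, had a difference of -1.09 ± 0.11 (adjusted p = 0.000375). In BMMs 0 of the 16 passed, with 10 at an unadjusted p below 0.05, and Cdk6 stood at 1.05 ± 0.26 (adjusted p = 0.0669).

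Genes of S phase and of G2 and M phase, which are read out downstream of the RB pathway, rose with RANKL in Bap1flox: 27 of 27 S phase genes (median 1.62) and 27 of 28 G2 and M genes (median 1.00). The cyclin E genes Ccne1 and Ccne2 rose by 2.00 ± 0.29 (adjusted p = 0.000828) and 2.00 ± 0.23 (adjusted p = 0.00028), and Mki67, the proliferation marker Ki-67, by 0.65 ± 0.08 (adjusted p = 0.000471). In Bap1LysM 1 of 27 and 1 of 28 rose (medians 0.52 and 0.04). In BMMs the estimates of all 27 S phase genes were positive in Bap1LysM (median 0.84, against -0.01 over all genes), but 0 passed the adjusted p, with 24 at an unadjusted p below 0.05. The estimates of all 28 G2 and M genes were positive too (median 0.44), with 0 past the adjusted p and 3 at an unadjusted p below 0.05, beside 26.2% of all genes. Between preOC genotypes 12 S phase and 17 G2 and M genes were lower in Bap1LysM in the pooled fit (medians -0.44 and -0.45), and 25 and 23 with the set term. Ccnb1, the mitotic cyclin B1, was lower by both (-0.45 ± 0.11, adjusted p = 0.0184, and -0.48 ± 0.08, adjusted p = 0.00118). In the genotype by RANKL test all 27 S phase estimates were negative (median -1.11), with 25 at an unadjusted p below 0.05 and 0 past the adjusted p.

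**Figure D5:**
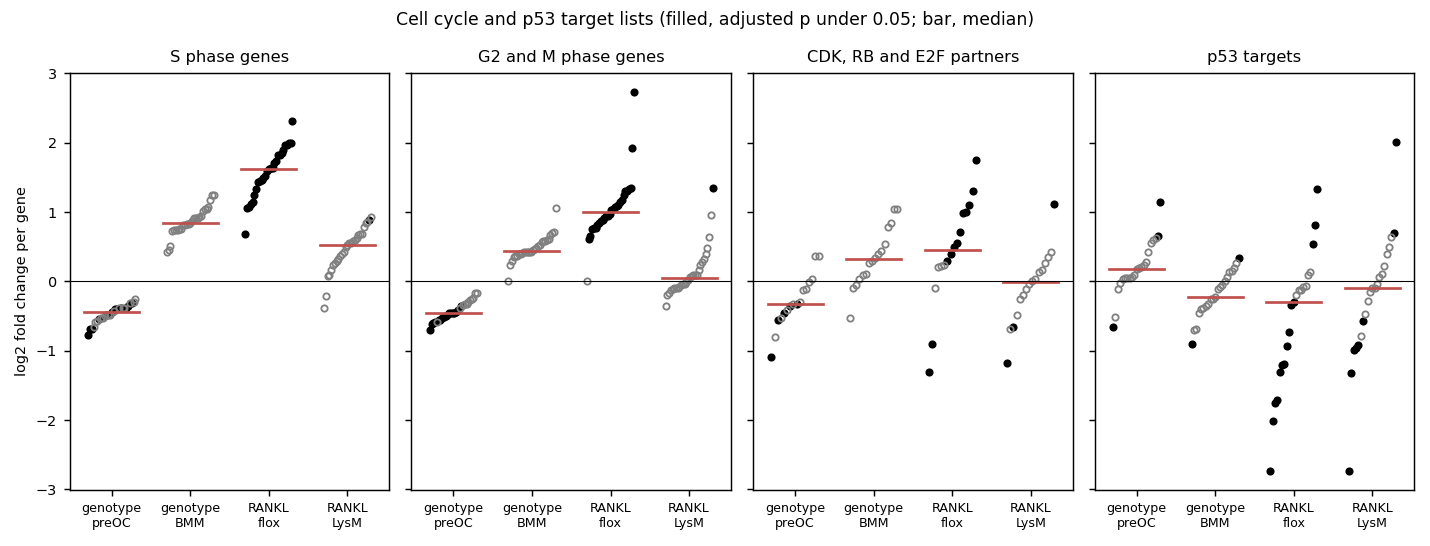
Each point is the log2 fold change of 1 gene of a list in 1 comparison, in rising order within the column, with filled points past an adjusted p of 0.05 and a bar at the list's median. S phase genes lie below 0 between preOC genotypes (median -0.44), above 0 between BMM genotypes without a call (median 0.84) and above 0 with RANKL in Bap1flox (median 1.62).

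Of 21 tested p53 targets other than Cdkn1a, 2 were higher and 1 lower in Bap1LysM preOCs in the pooled fit, and 7 higher and 1 lower with the set term (medians 0.18 and 0.19, against -0.01 and 0.00 over all genes). Ccng1, cyclin G1, was higher by 0.66 ± 0.15 (adjusted p = 0.0116) in the pooled fit and by 0.60 ± 0.06 (adjusted p = 0.000118) with the set term, and by 0.34 ± 0.07 (adjusted p = 0.0449) in BMMs. The list as a whole did not follow Ccng1 in BMMs, where 1 gene was higher and 1 lower (Btg2, -0.90 ± 0.17, adjusted p = 0.0407), the median was -0.22 and 7 of 21 estimates were positive. Mdm2, the negative regulator of p53, did not pass between preOC genotypes (0.03 ± 0.09, adjusted p = 0.854), nor did Trp53 itself (-0.19 ± 0.10, adjusted p = 0.208). With RANKL in Bap1flox 3 of the 21 rose, among them Mdm2 (0.54 ± 0.07, adjusted p = 0.000369). In the same comparison 11 fell, among them Sesn1 (-2.73 ± 0.09, adjusted p = 3.22e-06) and Btg2 (-2.01 ± 0.13, adjusted p = 2.21e-05). Trp53 itself rose by 0.85 ± 0.06 (adjusted p = 3.34e-05). In Bap1LysM 2 of the 21 rose, among them Pmaip1 (2.01 ± 0.32, adjusted p = 0.0172), and 6 fell, with Sesn1 again at -2.73 ± 0.23 (adjusted p = 0.00524).

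Of 28 genes that regulate the members or their turnover, 2 were higher and 3 lower in Bap1LysM preOCs in the pooled fit, and 5 higher and 3 lower with the set term. Over all genes 7.12% were higher and 8.68% lower in the pooled fit, so the 28 genes did not stand apart by their count. Among those called, Myc, the growth regulator that represses Cdkn1a and Cdkn2b and induces Ccnd2, was lower (-0.80 ± 0.17, adjusted p = 0.00962), as were Cks1b, a cofactor of SKP2 in p27 degradation (-0.56 ± 0.13, adjusted p = 0.015), and Dtl, the CUL4 substrate receptor that acts on p21 (-0.63 ± 0.15, adjusted p = 0.0173). Skp2 stood at -0.14 ± 0.14 (adjusted p = 0.539). RANKL raised Myc in both genotypes, by 3.17 ± 0.19 in Bap1flox (adjusted p = 1.83e-05) and 2.01 ± 0.26 in Bap1LysM (adjusted p = 0.0118), and the responses did not differ past the threshold (-1.16 ± 0.34, adjusted p = 0.338). In BMMs 4 of the 28 were lower in Bap1LysM, among them the Polycomb genes Cbx7 (-1.38 ± 0.22, adjusted p = 0.0258) and Pcgf2 (-0.74 ± 0.14, adjusted p = 0.0336).

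Markers of other cells moved with the genotype in preOCs, and single markers did so in BMMs. Of 9 tested neutrophil markers, 7 were higher in Bap1LysM preOCs, and their sum ran from 64.1 to 189 normalised CPM in Bap1flox and from 175 to 616 in Bap1LysM. Of 7 macrophage markers 2 were higher in Bap1LysM preOCs in the pooled fit, Csf1r, the M-CSF receptor (0.41 ± 0.10, adjusted p = 0.022), and Mertk (1.26 ± 0.30, adjusted p = 0.0158), and 3 were higher and 1 lower with the set term. Their sum ran from 3478 to 4638 in Bap1flox and from 3560 to 5531 in Bap1LysM. Of 10 osteoclast markers 1 was lower by both fits, Dcstamp, a gene of cell fusion (-0.69 ± 0.17, adjusted p = 0.0211 pooled), and their sums overlapped (6600 to 14225 against 6093 to 15870). B and plasma cell markers summed to 9.39 to 21.6 against 33.4 to 82.0, progenitor markers to 2.18 to 4.83 against 5.39 to 11.8, and dendritic cell markers to 41.3 to 184 against 96.8 to 161, which overlapped. Higher in Bap1LysM preOCs in the pooled fit were 3 of 4 tested B and plasma cell markers, 2 of 3 progenitor and 2 of 3 dendritic cell markers. None of these was lower, and with the set term 2 of each list were higher. Of 8 stromal markers tested in preOCs, 0 had a positive estimate in the pooled fit (median -0.84) and 0 passed, with 1 at an unadjusted p below 0.05. With the set term 3 were positive (median -0.23) and 1 was lower, Dcn, the gene of decorin (-1.32 ± 0.34, adjusted p = 0.0115). In BMMs 0 of 7 stromal estimates were positive (median -0.95), and 0 passed by the adjusted or the unadjusted p. Erythroid markers stayed at or below 0.618 and mast cell markers at or below 0.848 in every library, with Hbb-bt and Tpsb2 at 0 in all of them. In BMMs 2 of 4 tested B and plasma cell markers were higher in Bap1LysM, Jchain (3.07 ± 0.45, adjusted p = 0.0221) and Igkc (2.82 ± 0.58, adjusted p = 0.045). Cd79b of the B cell receptor was lower (-1.05 ± 0.20, adjusted p = 0.0363), and the summed B and plasma cell markers overlapped (98.9 to 125 against 65.5 to 131). The mitochondrial share of reads in preOCs was higher in Bap1LysM too, at 0.481% to 1.019% in Bap1flox against 1.021% and 1.074% in replicates 1 to 3, and at 2.364% to 3.639% against 3.383% to 5.264% in replicates 4 to 6, where the ranges overlapped. Ribosomal RNA genes held 0.137% to 0.209% of the reads against 0.246% to 0.359% in replicates 4 to 6. In replicates 1 to 3 they held 0.032% to 0.059% against 0.057% and 0.088%, which overlapped. The part of these cells and read shares in the preOC differences of Cdkn1a, Cdkn2c and Cdkn2d and in the BMM differences of Ccnd1 and the S phase genes was not tested.

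Genes with the most similar pattern were taken from 13732 genes by Pearson correlation of log2 CPM over the 17 libraries, which share the library set, RANKL and genotype. Cdkn1a was most like Gdf15, Stx4a and Siglec1 (r = 0.97 each), and Cdkn2c most like Pimreg (0.96), Gtse1 and Sdf2l1 (0.92 each), of which Pimreg and Gtse1 are expressed in dividing cells. Cdkn1b was closest to Cir1, Rmnd5a and Rabgap1l (0.94 to 0.95) and Cdkn2b to Pde10a, Cox4i1 and Adgra3 (0.96 to 0.97). Ccnd1 was closest to Flna (0.93), Gm13810 (0.92) and Gm13812 (0.90), Ccnd2 to Csf1, the gene of M-CSF, Unc5b and Mdk (0.96 each), and Ccnd3 to Acap3, Mvb12a and Arl2bp (0.96 each).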

How the data were processed

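Oligo-dT RNA-seq of 17 libraries was analysed from 17 tables, 1 per sample. Per the labels and the study's methods, the authors demultiplexed with bcl2fastq, aligned reads to the mouse primary assembly (GRCm38) with STAR 2.5.1a and counted the reads that fell uniquely on 1 gene with Subread's featureCounts 1.4.6-p5, and the deposited tables hold raw counts with the authors' CPM and RPKM columns beside them. The deposited CPM and RPKM are not scaled between libraries and were used only to check the counts. Symbols came from GENCODE M21 for 40254 of 41388 identifiers, and 355 ribosomal RNA genes were left out.

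Genes above 1 CPM in at least 4 (preOC genotype), 2 (BMM genotype, RANKL in Bap1flox) or 1 (other) libraries were tested with edgeR 4.0.16 (R 4.3.3; TMM scaling, quasi-likelihood test, Benjamini-Hochberg adjustment over all genes tested, threshold 0.05). Other settings used limma 3.58.1 (voomWithQualityWeights), DESeq2 1.42.0, factors by RLE and by upper quartile, filterByExpr or no filter, the replicate number as a block, the library set and each library left out. Normalised CPM and RPKM were computed from the counts with TMM factors over all 17 libraries. Pearson correlations used log2 CPM with a prior count of 2. The fits were also run on counts simulated from the same model without a library set difference. That run does not bear on how the sets or single libraries move the calls. No libraries were identical (highest pair r = 0.9925).

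Libraries with the same number deviated together from their group means (r = 0.39 to 0.73 in preOCs, 0.36 to 0.54 in BMMs, 0.24 to 0.37 for RANKL in Bap1flox), so blocked values are given where they change a call. In preOCs, libraries of different number but of the same set gave r = 0.24 to 0.68, a range that overlaps that of the same numbers. With library set means removed, r in preOCs was 0.45 and 0.38 for numbers 1 and 2 and -0.15 to 0.06 for numbers 4 to 6.

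The members and gene lists were chosen with earlier results of these data known. Named genes were the 10 members, Bap1, Lyz2, 6 partners (Cdk4, Cdk6, Cdk2, Rb1, Rbl1 and E2f1), 10 further regulators (Ccne1, Ccne2, Mki67, Ccnb1, Myc, Trp53, Mdm2, Ccng1, Skp2 and Cks1b), the 2 called genes of largest change per other list and comparison, the macrophage and osteoclast markers, and the 3 genes most correlated with each called member. Of the genes this rule allows, those that bear on the members are printed. Kit and Cd79b fall outside the rule and were named after their values were seen.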

Additional observations from a re-analysis of the deposited data

Results flagged for a closer look

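Over the 10 members in both preOC groups, 20 sets of values were searched for a library far from the others, and 1 stood out, about what chance gives at 1 in 20. Cdkn1c was at 15.6 normalised CPM in the library labelled Bap1LysM preOC number 1, while the other 4 Bap1LysM preOCs held 3.46 to 5.47, so that the gap to the nearest library was 0.834 of the group's range (critical value 0.710 for 5 samples). This is the preOC library that kept Lyz2 at 80.1% of the Bap1flox mean, and its dendritic cell, stromal and neutrophil marker sums (140, 461 and 177 normalised CPM) lay within the ranges of the other preOCs, whereas its osteoclast marker sum (6093) was the lowest of the 11 preOCs, the others holding 6600 to 15870.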

How the results depend on the processing

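Genes called between preOC genotypes numbered 2043 of 12929 tested. Of the same 12929, 7099 were called with voomWithQualityWeights, 2912 with DESeq2, 4236 with the replicate block and 4349 with the library set as a term. Over all 17 libraries 4354 of 13380 were called. With the set term but without the library labelled Bap1LysM number 1 (added after seeing the data), 5024 of 12881 were called. Replicates 1 to 3 alone gave 0 of 13129 and replicates 4 to 6 alone 4304 of 12728. With 1 library left out the count ran from 1071 to 3085. Of the members 1 was called, against 7 (voom), 4 (block), 3 (DESeq2, all 17 libraries, set term, set term without number 1, and replicates 4 to 6), 0 (replicates 1 to 3), and 0 to 2 with 1 library left out. In BMMs 693 of 13028 genes became 1772 (voom), 2065 (DESeq2) and 2107 (block) of the same 13028. They became 775 of 24818 (no filter), 1991 of 13810 (all 17) and 4 to 756 with 1 library left out. Of the members 0 became 2 (voom, no filter, block, all 17) or 3 (DESeq2). RANKL in Bap1LysM called 2503 genes, against 1628 (voom), 4073 (DESeq2), 3140 of 24256 (no filter), 6876 (all 17), 4415 (without both number 1 libraries) and 71 to 3634 with 1 left out, and 1 member, against 3 (DESeq2), 2 (no filter), 7 (all 17), 6 (without both) and 0 to 3. Genotype by RANKL called 0 genes, against 111 (DESeq2), 1550 (all 17) and 0 to 118, and 3 members over all 17. Signs turned only for members not called in that comparison. In preOCs these were Ccnd1 (voom -0.56, replicates 4 to 6 -0.02), Ccnd2 (replicates 4 to 6 0.31, set term without number 1 0.07), and in replicates 1 to 3 Cdkn1b (-0.19) and Cdkn1c (0.74). Others were Ccnd2 in BMMs (block 0.08), Cdkn1c (voom -0.13) and Cdkn2d (voom -0.16, block -0.01) for RANKL in Bap1flox, Cdkn2a for RANKL in Bap1LysM (voom -0.13), and for genotype by RANKL Cdkn1c (all 17 -0.03), Cdkn2b (without both number 1 libraries 0.32) and Ccnd3 (upper quartile -0.03, block -0.03, all 17 -0.05, without both -0.39). With 1 library left out, differences spanned 0 for Cdkn1c (-0.63 to 0.16) and Ccnd1 (-0.19 to 0.60) in preOCs, for Cdkn1c (-1.12 to 0.24), Cdkn2a (-0.69 to 0.36), Cdkn2d (-0.15 to 0.26) and Ccnd2 (-0.38 to 0.22) in BMMs, for Cdkn1c (-0.02 to 0.29) and Cdkn2d (-0.21 to 0.12) for RANKL in Bap1flox, for Cdkn2a (-1.11 to 0.70) for RANKL in Bap1LysM, and for Cdkn1c (-0.04 to 1.85), Cdkn2a (-1.64 to 0.15), Cdkn2b (-1.41 to 0.58) and Ccnd3 (-0.27 to 0.27) for genotype by RANKL. The replicate block changed no other member's call than those given beside the results. The causes were not tested. Cdkn2a had 18 to 131 reads per library, and no fit varied the depth.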
